A study of Mus musculus with 6 samples.

Results

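The genes described here were the integrin subunits and the laminin chains of the mouse. They were taken by symbol, as every gene named Itga or Itgb followed by a subunit number or letter and every gene named Lama, Lamb or Lamc followed by a chain number, and 37 of the 33696 genes in the count tables met that rule. They comprised 18 integrin alpha subunits, 8 integrin beta subunits, 5 laminin alpha chains, 3 laminin beta chains and 3 laminin gamma chains. The rule used no measured value.

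The cells came from the Achilles tendon of Gli1-CreERT2; Ai9 mice, all given tamoxifen, in which Cre driven from the *Gli1* locus switches on a tdTomato reporter in *Gli1*-expressing cells and their progeny. Mice were left uninjured or had the tendon cut (tenotomy) and were taken 7 or 21 days post injury (dpi), with 8 mice at each time point and 24 in all, and their cells were sorted into reporter-positive (Gli1+) and reporter-negative (Gli1-) fractions for 3′ single-cell RNA sequencing. That gave 6 libraries, the Gli1+ and the Gli1- fraction of uninjured, 7 dpi and 21 dpi tendon. Because the reporter is inherited, a Gli1+ cell need not be expressing *Gli1* when it is sorted. Reporter transcripts were not counted here, so the purity of the sorts was not checked. Each condition was 1 library of pooled mice with no record of which cell came from which mouse, so no difference between conditions was tested, and the 95% intervals given below cover the counting of transcript molecules (UMIs) only, not the spread between animals.

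Integrins are receptors of 1 alpha and 1 beta subunit that span the cell membrane and tie the extracellular matrix, or a partner on another cell, to the actin cytoskeleton or to keratin filaments. Laminins are cross-shaped trimers of an alpha, a beta and a gamma chain and form the sheet to which collagen IV, nidogen and perlecan attach in a basement membrane. In tendon, basement membrane lies in the sheath and around vessels and nerves, while cells inside the fibre bundles sit mainly on fibrillar collagen, and the alpha subunit largely decides which of these an integrin binds.

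After the filters the libraries held 7057 to 10882 cells and 53564928 to 107887022 UMIs, with a median of 4297 to 9775 UMIs per cell, and any pair of libraries shared 27 to 75 cell barcodes. Cells were clustered without the 37 genes and without the marker genes, and clusters were then named from fixed markers. Mesenchymal-like clusters, which expressed *Pdgfra*, *Dcn*, *Lum* and fibrillar collagens, held 38547 of the 57767 cells, and the tendon genes *Tnmd*, *Mkx*, *Fmod* and *Scx* were among the genes that led their tenocyte-like clusters. Those tendon genes were themselves among the naming markers, so their place is no separate support for the name. *Gli1* itself was at 6.55, 2.17 and 4.10 counts per 1000000 UMIs (CPM) in the whole Gli1+ libraries of uninjured, 7 dpi and 21 dpi tendon, against 7.64, 2.57 and 4.03 CPM in the Gli1- libraries. In mesenchymal cells it stood at 13.3, 2.16 and 4.05 CPM in Gli1+ and at 8.98, 2.64 and 4.58 CPM in Gli1-. The labels state an equal sex distribution, but the libraries differed in sex: *Xist* was at 0.02 to 0.05 CPM in the Gli1- uninjured and both 7 dpi libraries and at 654 and 672 CPM in the 21 dpi libraries, and the Gli1+ uninjured library was mixed (424 CPM), so sex and time cannot be told apart in most comparisons. Of the 4 comparisons of injured with uninjured cells, that of Gli1- at 7 dpi alone set libraries of the same sex type against each other, and the sorts also matched at 7 dpi and at 21 dpi. Cells with *Xist* and no Y-linked RNA made up 68.7% of the Gli1+ uninjured library and 0% of the Gli1- one. The 2 uninjured libraries should therefore not be read as fractions of the same mice. T cells (3015 cells) and myeloid cells (401) were found in the Gli1+ uninjured library alone, which also held 396 of the 437 cells of a mixed neutrophil and mast cell cluster. The mesenchymal cells of the Gli1+ 7 dpi library carried epidermal RNA: 8 keratinocyte markers summed to 2373 CPM in them, against 71.6 to 374 CPM in the other libraries.

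In mesenchymal cells 5 genes were past 2-fold lower at both times after injury in both sorts. Among the 5 is the leukocyte subunit *Itgb7*, at 0.87 to 12.3 CPM in these cells and highest in the library with T cells. Under alternatives given with the results below, *Lamb2*, *Itga8* and *Lama2* were each within 2-fold in at least 1 of these comparisons. To show the sequence context of the 3 with the highest mean level, the 250 bases upstream of the start site of *Lama2*, *Lamb2* and *Itga9* are printed below, read 5′ to 3′ on the strand of the gene from RefSeq (GRCm38.p6). Capitals mark the E-box CANNTG, the motif of the basic helix-loop-helix family to which the tendon factor scleraxis belongs. It reads the same on both strands, so 1 strand was searched for it.
Lama2 (chr10:27616943-27617192, minus strand): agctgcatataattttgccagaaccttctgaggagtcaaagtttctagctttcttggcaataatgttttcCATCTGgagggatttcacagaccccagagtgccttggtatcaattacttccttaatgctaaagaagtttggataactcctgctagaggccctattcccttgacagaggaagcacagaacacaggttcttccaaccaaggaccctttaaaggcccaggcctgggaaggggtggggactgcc
Lamb2 (chr9:108479612-108479861, plus strand): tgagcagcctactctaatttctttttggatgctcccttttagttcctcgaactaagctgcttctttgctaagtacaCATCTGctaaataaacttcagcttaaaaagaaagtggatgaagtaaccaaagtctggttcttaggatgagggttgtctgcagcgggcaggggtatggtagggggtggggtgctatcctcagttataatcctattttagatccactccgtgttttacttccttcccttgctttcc
Itga9 (chr9:118711442-118711691, plus strand): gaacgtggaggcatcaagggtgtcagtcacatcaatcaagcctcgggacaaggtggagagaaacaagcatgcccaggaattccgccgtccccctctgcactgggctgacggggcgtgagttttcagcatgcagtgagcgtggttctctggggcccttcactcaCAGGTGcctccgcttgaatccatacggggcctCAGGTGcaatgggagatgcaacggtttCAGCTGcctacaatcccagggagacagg
The E-box occurred 1 time in the window of *Lama2*, 1 time in that of *Lamb2* and 3 times in that of *Itga9*, and in the windows of the other two genes, not printed, 2 times for *Itga8* and 1 time for *Itgb7*. A promoter was found for 23 of the 37 genes, and 18 of those 23 held an E-box, against 66% of 27025 promoters of the same length. GC boxes (GGGCGG, both strands) were in 8 of the 23 and 32.9% of all promoters, and AP-1 motifs (TGANTCA, both strands) were in 1 of the 23 and 6.87% of all. The 3 windows printed held neither a GC box nor an AP-1 motif. A match is a description of the letters and not of binding.

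Across the whole tissue the family was divided among the cell types. For each gene the CPM of each class was averaged over the libraries with at least 50 cells of that class, and the class with the highest mean was recorded for the 35 genes that reached 1 CPM on average over the 11 classes. Mural cells (pericytes and smooth muscle) held the highest level of 7 genes, *Itga1*, *Itga7*, *Itga8*, *Itga10*, *Itgb1*, *Lama5* and *Lamc3*, where 6.10% of 16020 genes peaked in that class. *Itga3*, *Itgb6*, *Lama3* and *Lamb3* peaked in epidermal cells (background 12.5%). Another 5, *Itga2b*, *Itga6*, *Itgb4*, *Itgb5* and *Lamb2*, had their highest level in an unnamed group of 339 cells led by *Luzp2*, *Gatm* and *Sfrp5*, called cluster 22 here (background 9.60%). Myeloid cells held 4, *Itga5*, *Itgam*, *Itgax* and *Itgb2* (background 11.4%). Schwann cells held 3, *Itga2*, *Itgb8* and *Lamb1* (background 14.6%), T cells held 3, *Itgae*, *Itgal* and *Itgb7* (background 12%), lymphatic endothelial cells held 3, *Itga9*, *Lama4* and *Lamc1* (background 8.66%), and the mixed immune cluster held 3, *Itga4*, *Itgav* and *Itgb3* (background 5.86%). The skeletal muscle class held *Lama2* alone (background 7.43%) and mesenchymal cells held *Itga11* alone (background 5.34%). In uninjured tendon, however, *Lama2* was higher in mesenchymal cells than in the muscle class, as given below. Some of these orders were close, with a lead over the next class of 0.05 on the log2 scale for *Itga2b*, 0.07 for *Itga7*, 0.08 for *Lamb1*, 0.09 for *Itga5*, 0.11 for *Lama5* and 0.18 for *Itga10*. Immune classes rest on 1 library. Schwann and lymphatic means cover the 3 Gli1- libraries, the mesenchymal mean all 6. In Gli1- uninjured cells *Lamb1* was at 160 CPM in mesenchymal and 140 CPM in Schwann cells. *Lamc1* was there at 555 CPM in mesenchymal and 183 CPM in lymphatic cells. After injury *Lamc1* was higher in lymphatic cells at both times, and *Lamb1* was higher in Schwann cells at 21 dpi only. Cluster 22 rests on 99 and 97 cells of the Gli1+ 7 and 21 dpi libraries, with 5 and 4 UMIs of *Itga2b*. *Itgad* and *Lama1*, whose mean was under 1 CPM, were not ranked. Types taken from each cell's own markers gave another highest class for many genes, as counted under processing below.

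**Figure D1:**
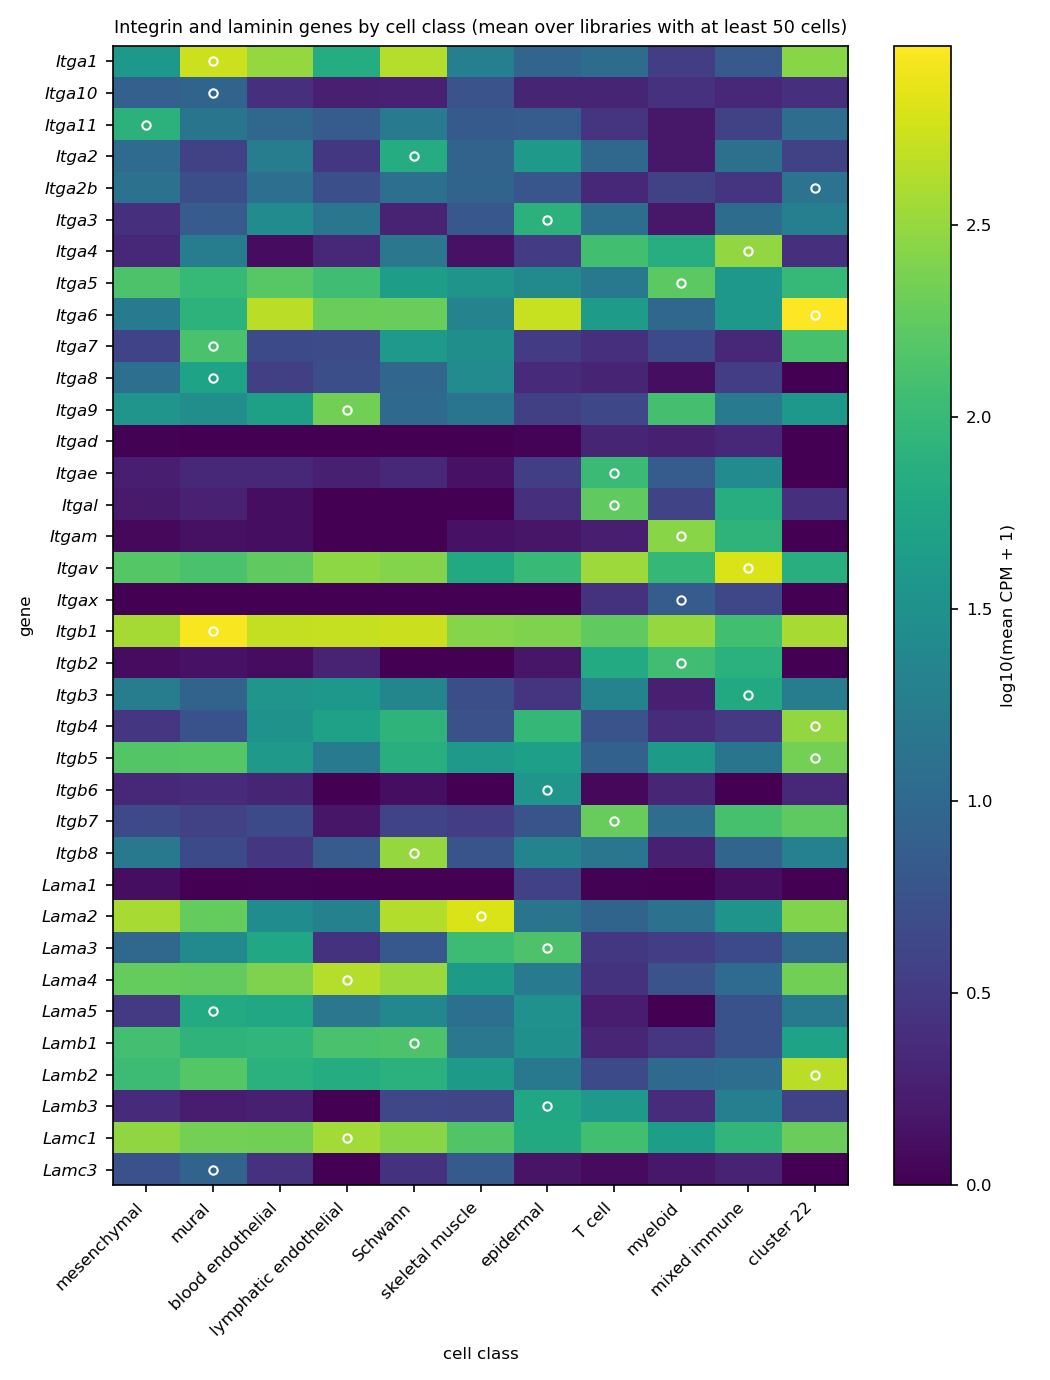
Mean level of 36 of the genes (rows) in each cell class (columns), as log10(mean CPM + 1) over the libraries with at least 50 cells of the class; white circles mark the class with the highest mean. *Itga11* is the only row whose circle lies in the mesenchymal column, at 79.5 CPM against 16.1 CPM in Schwann cells, the next class.

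The laminin alpha chains differed in the class of their highest level. *Lama2*, the chain of muscle and nerve basement membrane whose loss causes a congenital muscular dystrophy, was at 286, 97.1 and 177 CPM across Gli1+ libraries (uninjured, then 7 and 21 dpi) and at 617, 138 and 186 CPM in Gli1- libraries. Its class mean was 623 CPM in the skeletal muscle class, 425 in Schwann cells and 377 in mesenchymal cells, and mesenchymal cells held 88.6 to 94.6% of all *Lama2* UMIs in every library. The muscle mean covers 673 and 547 CPM in uninjured Gli1+ and Gli1- cells and 493 and 778 CPM at 21 dpi. Muscle markers were far lower in the 21 dpi cells of that class. In both uninjured libraries the mesenchymal level, given below, was above that of the muscle class. *Lama4*, a chain of vessel basement membrane, was at 74.3, 158 and 119 CPM in Gli1+ and at 266, 218 and 157 CPM in Gli1- libraries, with class means of 427 CPM in lymphatic endothelium and 330 CPM in Schwann cells. Its class level was thus highest in lymphatic endothelium and Schwann cells. Mesenchymal cells, at a mean of 183 CPM, nevertheless held most of its UMIs in every library. *Lama3*, part of the epidermal laminin that anchors keratinocytes, was at 27.1, 27.7 and 23.7 CPM in Gli1+ and at 15.7, 3.93 and 9.38 CPM in Gli1- libraries, with a class mean of 138 CPM in epidermal cells. *Lama5* was at 9.07, 4.08 and 8.99 CPM in Gli1+ and at 19.5, 4.75 and 14.3 CPM in Gli1- libraries, and its means in mural (63.2 CPM) and blood endothelial cells (58.4 CPM) were near each other. *Lama1*, a chain best known from the embryo, did not pass 1.26 CPM in any library.

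Of the beta and gamma chains, *Lamb1* and *Lamc1* belong to the widespread laminins. *Lamb1* was at 25.3, 118 and 94.0 CPM in Gli1+ and at 127, 146 and 108 CPM in Gli1- libraries, and its means in Schwann (135.4 CPM), lymphatic (128 CPM) and mesenchymal cells (120 CPM) differed little. *Lamc1* was at 178, 203 and 179 CPM in Gli1+ and at 435, 272 and 209 CPM in Gli1- libraries. Its lymphatic mean of 354 CPM was followed by 293 CPM in mesenchymal cells, so both genes were spread over many classes. *Lamb2*, the beta chain of neuromuscular and kidney basement membrane, was at 78.5, 52.3 and 73.5 CPM in Gli1+ and at 159, 76.8 and 80.9 CPM in Gli1- libraries, and cluster 22 stood out with 450 CPM against 151 CPM in mural cells. *Lamb3*, a partner of *Lama3* in epidermal laminin, was at 20.8, 14.0 and 6.41 CPM in Gli1+ and at 1.14, 1.12 and 1.26 CPM in Gli1- libraries. Its mean was 59.1 CPM in epidermal cells. In the Gli1+ uninjured library, T cells (38.9 CPM) held 1006 of its UMIs and epidermal cells 236, so its level there was not mainly epidermal. Epidermal cells numbered 174, 1821 and 750 in Gli1+ and 0, 31 and 89 in Gli1- libraries. *Lamc3* stayed under 10 CPM in every whole library (0.94 to 6.98 CPM), but in a mesenchymal group of 317 cells led by *Gpc5* and *Coch*, cluster 23, it reached 274 CPM in Gli1+ and 247 CPM in Gli1- cells at 21 dpi. *Lamc3* is itself among the 10 genes that lead that cluster, so these 2 levels describe the cluster and are no separate result.

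Of the laminin-binding integrins, *Itga6* and *Itgb4* peaked in cluster 22, *Itga3* in epidermal and *Itga7* in mural cells. *Itga6*, which pairs with beta1 or, in hemidesmosomes, with beta4, was at 91.5, 113 and 80.8 CPM in Gli1+ and at 150, 31.9 and 66.4 CPM in Gli1- libraries. Its mean was 924 CPM in cluster 22 and 516 CPM in epidermal cells. In the Gli1+ 7 dpi library cluster 22 had 474 CPM, under the 486 CPM of epidermal cells, and at 21 dpi it had 1373 CPM. *Itgb4* had the same order of those classes, 302 CPM in cluster 22 and 92.6 CPM in epidermal cells, and lay at 17, 19.8 and 14.4 CPM in Gli1+ and at 9.67, 3.25 and 8.18 CPM in Gli1- libraries. *Itga3*, another receptor for laminin in skin, was at 17.2, 7.69 and 10.5 CPM in Gli1+ and at 4.13, 1.58 and 5.30 CPM in Gli1- libraries, with 78.9 CPM in epidermal cells. *Itga7*, the laminin receptor of muscle, was at 5.80, 3.48 and 10.3 CPM in Gli1+ and at 13.5, 6.40 and 15 CPM in Gli1- libraries, and its mural mean of 130 CPM was hardly above the 124 CPM of cluster 22. Mesenchymal cells had little of these 3 alpha subunits, with means of 15.1 CPM for *Itga6*, 1.53 CPM for *Itga3* and 2.96 CPM for *Itga7*.

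The 4 collagen-binding alpha subunits, all partners of beta1, did not share 1 leading class: *Itga1* and *Itga10* peaked in mural, *Itga2* in Schwann and *Itga11* in mesenchymal cells. *Itga11*, the receptor for fibrillar collagen I of fibroblasts, was at 36.2, 57.8 and 56.7 CPM in Gli1+ and at 69.1, 66.5 and 57.1 CPM in Gli1- libraries. *Itga1*, which favours collagen IV of basement membrane, was at 53.5, 25.8 and 50.4 CPM in Gli1+ and at 217, 55.4 and 84.8 CPM in Gli1- libraries, with class means of 556 CPM in mural and 427 CPM in Schwann cells. Mesenchymal cells, at 37.4 CPM, held 37.1, 67.9 and 43.3% of the *Itga1* UMIs of the Gli1+ libraries and 19.4, 45.4 and 28.8% of those of the Gli1- libraries, so its whole-library level mixed stroma with vessels. *Itga2* was at 17.4, 8.51 and 10.7 CPM in Gli1+ and at 9.11, 6.47 and 8.81 CPM in Gli1- libraries and had its highest means in Schwann (67.0 CPM) and epidermal cells (39.7 CPM). *Itga10*, the collagen II receptor of cartilage, was at 1.5 to 8.91 CPM in the whole libraries. Within mesenchymal cells it was highest in the chondrocyte and bone-like cells, at 45.5 CPM in Gli1+ and 49.1 CPM in Gli1- at 21 dpi, and in uninjured Gli1+ tenocyte-like cells, at 44.9 CPM.

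Receptors for fibronectin, vitronectin, tenascin and other non-collagen ligands ranged from *Itgav*, seen in stroma and leukocytes, to *Itga2b*, low throughout. *Itgav* was at 231, 200 and 128 CPM in Gli1+ and at 82.9, 213 and 161 CPM in Gli1- libraries. In the Gli1+ uninjured library 59.0% of its UMIs came from T cells (337 CPM) and 13.9% from the mixed immune cluster (620 CPM), so whole-library levels of *Itgav* mixed leukocytes and stroma. *Itga5*, the fibronectin receptor, was at 88.4, 96.9 and 137 CPM in Gli1+ and at 85.7, 132 and 156 CPM in Gli1- libraries, with near-equal means in myeloid (165 CPM), blood endothelial (154 CPM) and mesenchymal cells (137 CPM). *Itga8*, a receptor for nephronectin, was at 13.5, 4.62 and 6.26 CPM in Gli1+ and at 20.5, 4.02 and 5.09 CPM in Gli1- libraries, and mural cells had 51.2 CPM. *Itga9*, which binds tenascin C and VCAM1 and is needed for lymphatic valves, was at 36.5, 13.8 and 17.7 CPM in Gli1+ and at 55.1, 26.3 and 23.3 CPM in Gli1- libraries, and lymphatic endothelium had 213 CPM. *Itga2b*, the platelet fibrinogen receptor, lay at 5.11, 11.2 and 12.6 CPM in Gli1+ and at 8.72, 12.3 and 13.1 CPM in Gli1- libraries.

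The leukocyte integrins marked the Gli1+ uninjured library. *Itga4* was at 69.3 CPM there and at 0.91 to 2.10 CPM in the other 5 libraries. *Itgal* (LFA-1) was at 76.1 CPM there and at 0.24 to 0.54 CPM elsewhere, and *Itgae*, the E-cadherin receptor of skin-resident T cells, at 44.9 CPM and at 0.42 to 0.85 CPM. *Itgam* was at 20.5 CPM there and at 0.10 to 0.24 CPM elsewhere. Their beta partners had the same pattern, with *Itgb2* at 37.0 CPM against 0.06 to 0.37 CPM and *Itgb7* at 91.4 CPM against 0.96 to 3.51 CPM. *Itgax* and *Itgad* did not pass 1.22 and 0.56 CPM in any library. *Itgb7* had a second source: cluster 22 had 169 CPM, near the 190 CPM of T cells, from 147 CPM at 7 dpi and 191 CPM at 21 dpi in the Gli1+ libraries, in which no T cell cluster was found.

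Among the other beta subunits, *Itgb1*, the partner of most alpha subunits, was at 263, 390 and 403 CPM in Gli1+ and at 363, 415 and 435 CPM in Gli1- libraries, and all classes expressed it, from 115 CPM in the mixed immune cluster to 857 CPM in mural cells. *Itgb5* was at 77.9, 107 and 156 CPM in Gli1+ and at 119, 119 and 149 CPM in Gli1- libraries. *Itgb3* was at 19.9, 9.89 and 17.4 CPM in Gli1+ and at 13.8, 13.6 and 23.2 CPM in Gli1- libraries. Both are partners of alphav, and mesenchymal cells had 149 CPM of *Itgb5* and 16.7 CPM of *Itgb3*. *Itgb8*, an alphav partner that activates latent TGF-beta, was at 12.9, 12.3 and 16.9 CPM in Gli1+ and at 13.3, 14.3 and 18.7 CPM in Gli1- libraries and stood out in Schwann cells, at 312 CPM against 20.8 CPM in epidermal cells, the next class. *Itgb6*, the epithelial alphav partner, was at 0.58 to 6.68 CPM in the whole libraries and at 33.8 CPM in epidermal cells.

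To compare injured with uninjured stroma, the mesenchymal cells of each library were summed, 2405, 6907 and 7969 cells in Gli1+ and 5766, 7973 and 7527 in Gli1-. In them 30 of the 37 genes had a mean of at least 1 CPM over the 6 libraries. The 7 that did not were *Itgad*, *Itgae*, *Itgal*, *Itgam*, *Itgax*, *Itgb2* and *Lama1*. *Itga4*, *Itgb6* and *Lamb3*, at means of 1.22, 1.15 and 1.34 CPM, passed only through the library where each was highest. That library was Gli1+ uninjured for *Itga4* (4.74 CPM) and *Itgb6* (2.33 CPM) and Gli1+ 7 dpi for *Lamb3* (3.74 CPM). Where the counts below include these genes, they are no support for a difference. In Gli1+ cells at 7 dpi, 11 of the 30 were past 2-fold lower than in uninjured tendon, where 18.4% of 14273 genes were, and 3 were past 2-fold higher (background 12%). In Gli1+ cells at 21 dpi 11 were lower (background 17.2%) and 0 higher (background 7.47%). In Gli1- cells 9 were lower (background 13.7%) and 1 higher (background 13.2%) at 7 dpi, and 8 were lower (background 14.1%) and 1 higher (background 12.1%) at 21 dpi. The median log2 ratio of the 30 was -0.55 and -0.54 in Gli1+ and -0.58 and -0.30 in Gli1- at 7 and 21 dpi, against medians of -0.17, -0.29, -0.06 and -0.10 over all genes. For the 10 laminin chains alone it was -0.37, -0.59, -0.97 and -0.99, and for the 20 integrins alone -0.59, -0.525, -0.42 and 0.22. These ratios are per total UMIs, and scaling by trimmed mean of M-values (TMM) would add 0.29 and 0.45 in Gli1+ and 0.10 and 0.18 in Gli1- to each.

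*Itga8*, *Itga9*, *Itgb7*, *Lama2* and *Lamb2* were past 2-fold lower in all 4 comparisons, and all but *Lamb2* also under TMM scaling. *Itgb7*, a leukocyte subunit, lay between 0.87 and 12.3 CPM and was highest in Gli1+ uninjured, the only library with T cells. The part of T cell RNA in its ratios was not tested. In cluster 0 of Gli1-, a mesenchymal group described below, *Itgb7* was at 1.88, 0.45 and 2.70 CPM (51, 4 and 10 UMIs), not lower at 21 dpi. *Lama2* had the largest difference in CPM. It was at 747 (735 to 758) CPM in Gli1+ uninjured cells, and at 7 and 21 dpi it was at 117 (114 to 119) and 205 (201 to 208), against 836, 143 and 212 CPM in Gli1- cells. Both uninjured libraries were above all 4 injured ones. The log2 ratios were -2.67 (-2.71 to -2.64) and -1.87 (-1.90 to -1.84) in Gli1+ and -2.55 (-2.58 to -2.52) and -1.98 (-2.01 to -1.95) in Gli1-. *Lamb2* was at 188, 57.1 and 77.0 CPM in Gli1+ and at 169, 74.9 and 77.8 CPM in Gli1-, with log2 ratios of -1.72 and -1.29 in Gli1+ and -1.17 and -1.12 in Gli1-. Under TMM its ratios at 21 dpi were -0.83 and -0.93, within 2-fold. Again no injured library reached an uninjured one. When every barcode was used and clusters were named by their own markers, the Gli1+ ratio of *Lama2* at 7 dpi was 0.09, from 109 cells at 7 dpi and 338 uninjured cells.

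**Figure D2:**
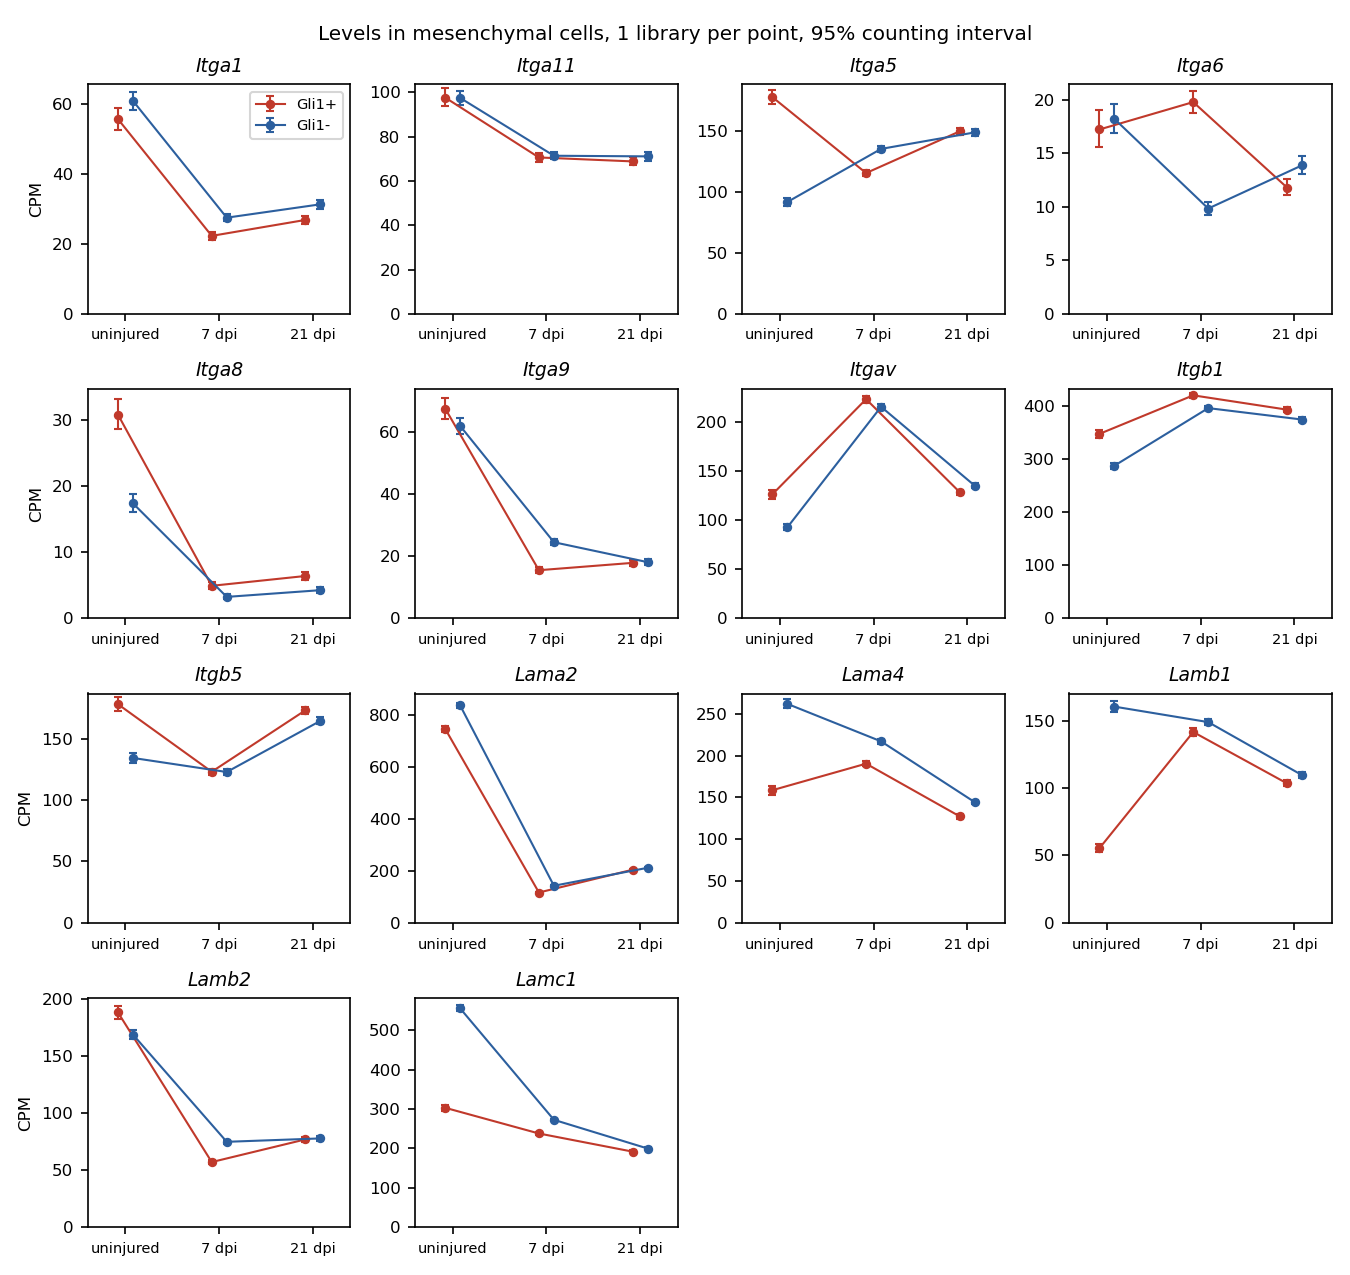
Levels (CPM, axes from 0) of the 14 genes with the highest mean, or past 2-fold at a mean of at least 10 CPM, in mesenchymal cells of each library; each point is 1 library, bars are 95% counting intervals, red is Gli1+ and blue Gli1-. *Lama2*, *Lamb2*, *Itga1*, *Itga8* and *Itga9* lie lower in all 4 injured libraries than in the uninjured ones, whereas *Itgav* is highest at 7 dpi, at 224 and 216 CPM.

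*Lamc1*, the gamma chain shared by most laminins, was at 303, 238 and 192 CPM in Gli1+ and at 555, 273 and 200 CPM in Gli1-. Its log2 ratios were -0.35 (-0.39 to -0.31) and -0.66 (-0.70 to -0.62) in Gli1+ and -1.03 (-1.05 to -1.0) and -1.47 (-1.5 to -1.44) in Gli1-, so the levels were near each other after injury and apart before it. The ratio of -1.03 was -0.92 under TMM. *Lamb1* was at 55.4, 142 and 103 CPM in Gli1+ and at 160, 149 and 110 CPM in Gli1-. In Gli1+ the ratios at 7 and 21 dpi were 1.35 (1.27 to 1.44) and 0.90 (0.82 to 0.99), but -0.11 (-0.15 to -0.06) and -0.55 (-0.60 to -0.50) in Gli1-. Under TMM the second was 1.35, past 2-fold, and the third -0.0022. The single library that stood apart for *Lamb1* was Gli1+ uninjured. *Lama4* was at 159, 190 and 127 CPM in Gli1+ and at 262, 217 and 144 CPM in Gli1-, with log2 ratios of 0.26 and -0.32 in Gli1+, where the second became 0.14 under TMM, and of -0.27 and -0.86 in Gli1-. *Lamc3* was at 9.44, 1.16 and 5.38 CPM in Gli1+ and at 9.28, 0.94 and 1.75 CPM in Gli1-, and lay past 2-fold lower in 3 of the 4 comparisons. *Lama5*, at 1.14 to 3.36 CPM, was near the limit of the filter.

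For the epidermal chains, the epidermal RNA in the mesenchymal cells of the Gli1+ 7 dpi library has to be read beside the values. *Lamb3* was at 0.79, 3.74 and 0.90 CPM in Gli1+ and at 1.30, 0.81 and 0.48 CPM in Gli1-. At the ratio of *Lamb3* to keratinocyte marker UMIs seen in the epidermal cells of that library, 4.30 CPM would come with the epidermal RNA, and for *Itgb4*, at 4.11 CPM in those cells, the same sum gave 6.01 CPM. Neither gene exceeded that level. The same reckoning gave 36.4 CPM for *Itga6* (19.8 CPM measured). *Lama3* differed: it was at 33.0 CPM in Gli1+ uninjured mesenchymal cells, where 2.13 CPM would come with the epidermal RNA, at 5.19 and 6.10 CPM after injury, and at 2.98, 1.62 and 3.72 CPM in Gli1-. Within Gli1+ uninjured cells it was at 83.2 CPM in tenocyte-like cells and 20.3 CPM in cluster 0.

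Of the collagen and tenascin receptors, *Itga1* was at 55.7, 22.3 and 26.9 CPM in Gli1+ and at 60.9, 27.5 and 31.3 CPM in Gli1-. The log2 ratios were -1.32 (-1.43 to -1.21) and -1.05 (-1.15 to -0.95) in Gli1+ and -1.15 (-1.23 to -1.07) and -0.96 (-1.04 to -0.87) in Gli1-. At 21 dpi the Gli1+ ratio was -0.60 under TMM. The sign was not kept when clusters were named by their own markers: the Gli1+ ratios of *Itga1* were then 0.39 and 0.65 with doublets kept (515 uninjured cells named mesenchymal) and 1.25 and 0.47 with every barcode (338 cells), and the Gli1- ratio at 7 dpi was 0.09 with every barcode (119 cells). *Itga11* was lower by less, at 97.6, 70.6 and 68.8 CPM in Gli1+ and at 97.4, 71.4 and 71.1 CPM in Gli1-, with ratios of -0.45 to -0.50 in all 4 comparisons. *Itga9* was at 67.7, 15.6 and 17.9 CPM in Gli1+ and at 62.1, 24.6 and 18.2 CPM in Gli1-, or -2.12 (-2.24 to -2.01) and -1.92 (-2.02 to -1.81) and, in Gli1-, -1.34 (-1.42 to -1.25) and -1.77 (-1.87 to -1.68). *Itga8* was at 30.8, 4.92 and 6.41 CPM in Gli1+ and at 17.4, 3.25 and 4.27 CPM in Gli1-, with ratios between -2.03 and -2.64. For both genes each uninjured level was above every injured one. *Itga2* was at 28.1, 5.64 and 6.07 CPM in Gli1+ and at 8.98, 5.35 and 5.69 CPM in Gli1-, and *Itga10* at 18.5, 1.95 and 10.2 CPM and at 1.89, 1.45 and 9.07 CPM. Both were thus highest in the Gli1+ uninjured library, and *Itga10* in Gli1- was past 2-fold higher at 21 dpi, 2.26 (1.90 to 2.64).

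**Figure D3:**
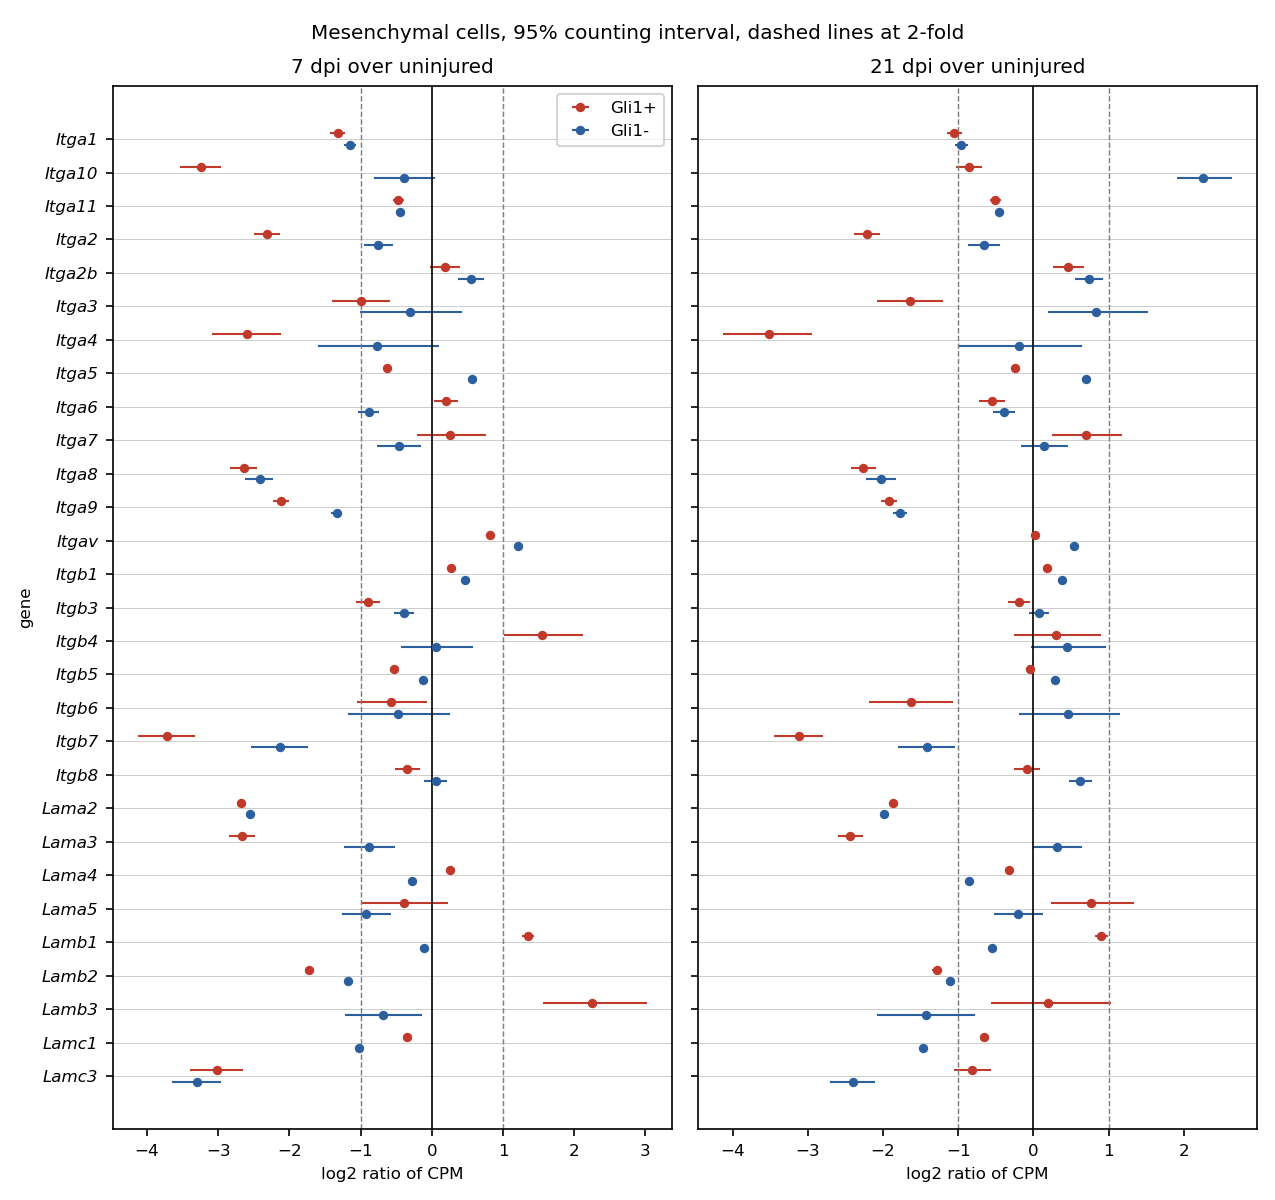
Log2 ratio of CPM in mesenchymal cells at 7 dpi (left) and 21 dpi (right) over uninjured for 29 of the genes above the filter, with 95% counting intervals; red is Gli1+, blue is Gli1-, and dashed lines mark 2-fold. The longest bars belong to genes of few UMIs such as *Lamb3* and *Itga4*, and *Lamb1*, *Itga5* and *Itga10* have red and blue points on opposite sides of 0 in at least 1 panel.

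*Itgav* was the gene past 2-fold higher at 7 dpi in Gli1- cells, and it was also higher in Gli1+ cells at that time. It was at 126 (122 to 131), 224 (220 to 227) and 129 (126 to 131) CPM in Gli1+ and at 92.8, 216 and 135.2 CPM in Gli1-. For Gli1+ the log2 ratio at 7 dpi was 0.82 (0.76 to 0.88), against 1.22 (1.17 to 1.27) for Gli1- (1.11 in Gli1+ under TMM, past 2-fold), and at 21 dpi it was 0.02 (-0.04 to 0.08) and 0.54 (0.49 to 0.60). *Itgb1* was at 348, 420 and 393 CPM in Gli1+ and at 288, 396 and 375 CPM in Gli1-, at most 1.38-fold higher than uninjured. *Itgb5* was at 178, 123 and 173 CPM in Gli1+ and at 134, 123 and 165 CPM in Gli1-. *Itga5* was at 178, 116 and 150 CPM in Gli1+ and at 91.9, 136 and 149 CPM in Gli1-, so the sorts were 1.94-fold apart before injury and 1.01-fold apart at 21 dpi. Its ratio was -0.62 (-0.68 to -0.57) and -0.25 (-0.30 to -0.20) in Gli1+, the second of which became 0.21 under TMM, and 0.56 (0.51 to 0.62) and 0.70 (0.64 to 0.75) in Gli1-. *Itga6* was at 17.2, 19.8 and 11.8 CPM in Gli1+ and at 18.2, 9.83 and 13.9 CPM in Gli1-. *Itgb3* (11.6 to 21.7 CPM), *Itgb8* (12.3 to 18.9 CPM) and *Itga2b* (8.61 to 14.4 CPM) stayed within 2-fold in every comparison.

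The mesenchymal cells of different times did not sit in the same clusters. Cluster 0, led by *Inmt*, *Abca8a* and *Ccl11*, held 39.4, 0.35 and 4.96% of them in Gli1+ and 77.9, 20.1 and 12.2% in Gli1-. At 7 dpi, 83.7% of Gli1+ mesenchymal cells were in cluster 3, led by *Crabp1*, and 68.0% of Gli1- ones in cluster 2, led by *H19* and *Ptn*, which were nearly absent from uninjured tendon. Tenocyte-like cells made up 31.1, 10.6 and 59.1% in Gli1+ and 3.69, 6.48 and 52.7% in Gli1-. Levels were therefore also read within groups of cells. *Lama2* within cluster 0 was at 853 CPM in uninjured and 770 CPM at 21 dpi in Gli1+, and at 921, 620 and 1283 CPM in Gli1-, against 101 CPM in cluster 3 and 81.9 CPM in cluster 2 at 7 dpi. Within cluster 0 the gene was therefore not past 2-fold lower, and clusters 2 and 3 had less of it. Cluster 17, led by *Unc13c*, *Sorcs3* and *Tenm2*, held 9.02, 2.4 and 0.85% of Gli1+ mesenchymal cells and had more *Lama2* than cluster 0, at 2482, 1174 and 1974 CPM in Gli1+ and 1469 CPM in Gli1- uninjured cells. There the log2 ratio in Gli1+ was -1.08 (-1.21 to -0.95) at 7 dpi, past 2-fold lower inside 1 cluster, while by 21 dpi it was -0.33 (-0.49 to -0.18). In tendon stem cell-like cells, also a single cluster, *Lama2* was at 394 and 314 CPM in Gli1+ (uninjured and 21 dpi) and at 625, 420 and 285 CPM in Gli1-. In Gli1- it was thus past 2-fold lower at 21 dpi inside this cluster too, while in Gli1+ it was within 2-fold.

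Tenocyte-like cells also differed with time. There *Lama2* was at 588, 215 and 211 CPM in Gli1+ and at 500, 214 and 191 CPM in Gli1-, and *Lamb1* at 5.98, 59.4 and 81.8 CPM and at 16.6, 73.3 and 86.3 CPM. *Itga8* was at 90.0, 31.4 and 7.85 CPM in Gli1+ and at 119, 15.2 and 4.89 CPM in Gli1-, and *Itga1* at 108, 31.4 and 25.1 CPM and at 112, 28.7 and 25.3 CPM. Both sorts thus had the same order of times for each gene. The class was, however, made of different clusters at each time. Cluster 9, led by *Col22a1*, *Angptl7* and *Chad*, held most uninjured cells, cluster 16 most Gli1+ 7 dpi cells and cluster 1, led by *Wfdc1* and *Tnmd*, most 21 dpi cells. Within cluster 9 the differences were smaller: *Lama2* was at 617 and 511 CPM in Gli1+ (uninjured and 21 dpi) and at 524, 315 and 520 CPM in Gli1-. *Itga8* there was at 96.7 and 68.2 CPM in Gli1+ and at 128, 35.4 and 50.2 CPM in Gli1-. *Lamb1* remained higher after injury within cluster 9, at 4.74 and 32.6 CPM in Gli1+ and at 9.96, 50 and 41.7 CPM in Gli1-. Without tenocyte-like cells, a choice made after the data were seen, the Gli1+ log2 ratios of *Itga8* were -0.89 and -0.39 at 7 and 21 dpi and those of *Itga1* -0.65 and -0.24, all within 2-fold. These values are for Gli1+ alone, where tenocyte-like cells held 29.3% of uninjured mesenchymal UMIs, against 3.59% in Gli1-. In Gli1- *Itga8* was still past 2-fold lower at both times without them.

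**Figure D4:**
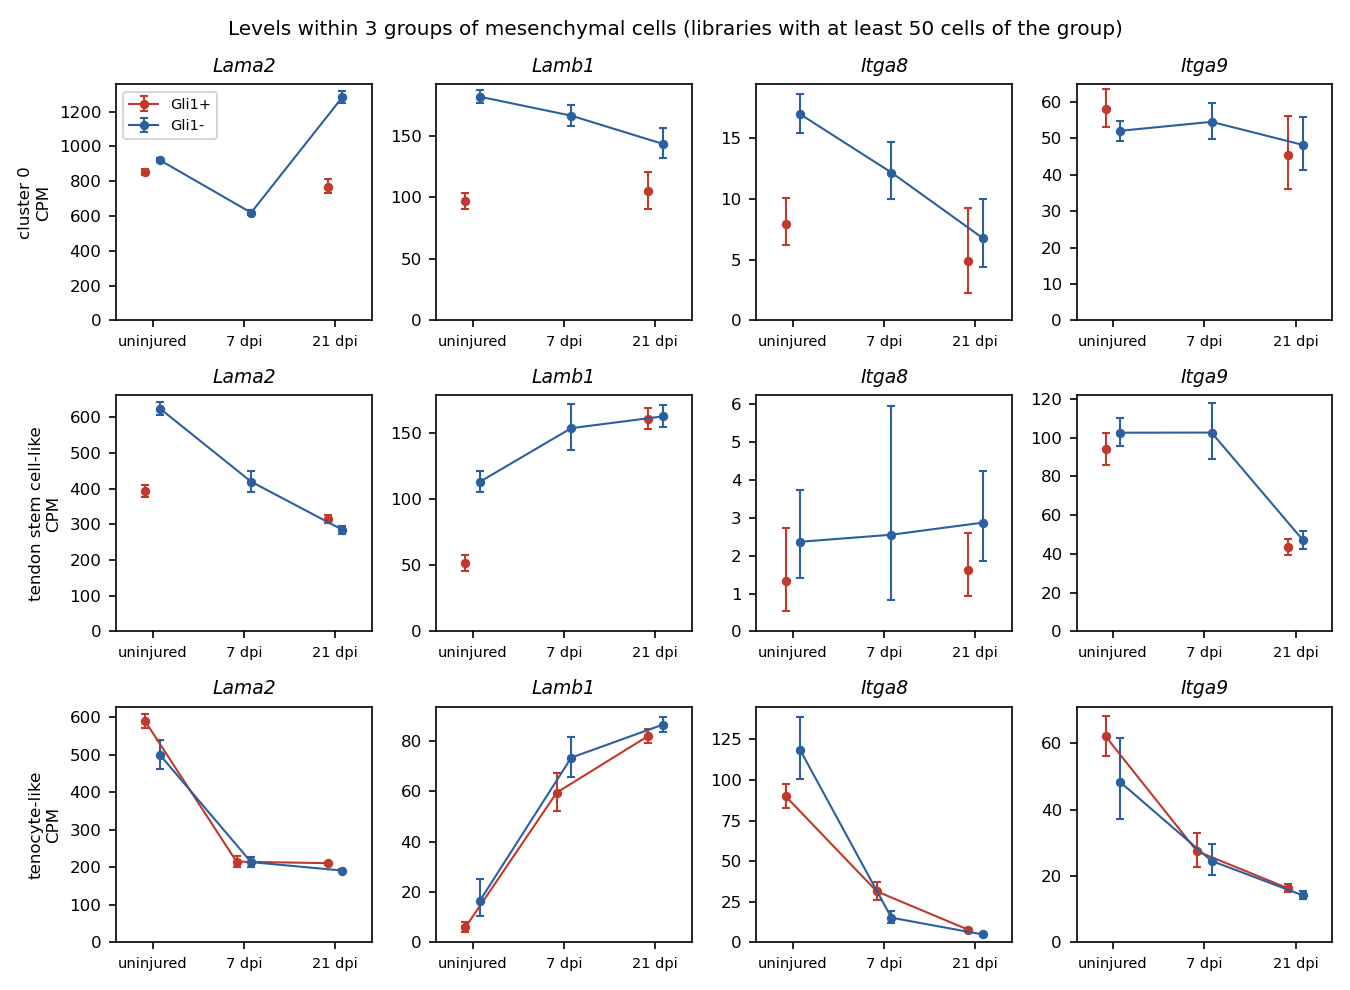
Levels (CPM, axes from 0) of *Lama2*, *Lamb1*, *Itga8* and *Itga9* within cluster 0 (top), tendon stem cell-like cells (middle) and tenocyte-like cells (bottom) for libraries with at least 50 cells of the group; bars are 95% counting intervals, red is Gli1+ and blue Gli1-. In tenocyte-like cells *Itga8* goes from 90.0 and 119 CPM in uninjured tendon to 7.85 and 4.89 CPM at 21 dpi, while *Itga9* in cluster 0 stays between 45.3 and 58.0 CPM.

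Other genes were also read within groups. In stem cell-like cells *Itga9* was at 93.9 and 43.5 CPM in Gli1+ (uninjured and 21 dpi) and at 103, 103 and 47.2 CPM in Gli1-, so it was lower at 21 dpi and not at 7 dpi. *Lamb1* there was at 51.6 and 161 CPM in Gli1+ and at 113, 154 and 163 CPM in Gli1-. In cluster 0, by contrast, *Lamb1* was at 97.2 and 105 CPM in Gli1+ and at 182, 166 and 144 CPM in Gli1-. There it was within 2-fold and, in Gli1-, lower after injury. *Itgav* was highest in clusters found after injury, with 233 CPM in cluster 3 at Gli1+ 7 dpi, 236 CPM in cluster 2 at Gli1- 7 dpi and 196 and 220 CPM at 21 dpi in cluster 10, led by *Saa3*, *Mmp13* and *Grem1*. In cluster 0 it stayed at 85.0 to 130 CPM. *Lamb2* in cluster 0 was at 211 and 151 CPM in Gli1+ (uninjured and 21 dpi) and at 155, 164 and 151 CPM in Gli1-. Clusters 3 and 2 had 55.2 and 60.2 CPM of it in Gli1+ and Gli1- at 7 dpi. *Lamc1* in cluster 0 was at 367 and 295 CPM in Gli1+ and at 570, 516 and 438 CPM in Gli1-. Neither gene was past 2-fold lower inside cluster 0. *Lama2* was low at 21 dpi in cluster 10, at 41.8 CPM in Gli1+ and 30.4 CPM in Gli1-, and in chondrocyte and bone-like cells, at 27.2 and 45.8 CPM.

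Between the sorts, more genes were past 2-fold before injury and at 7 dpi than at 21 dpi. In uninjured tendon 7 of the 30 genes were past 2-fold higher in Gli1+ than in Gli1- (background 11.2%), namely *Itga2*, *Itga3*, *Itga4*, *Itga10*, *Itgb6*, *Itgb7* and *Lama3*, and 2 were lower, *Lama5* and *Lamb1* (background 4.49%). Of the 7, *Itga4* and *Itgb6* passed the filter only through the Gli1+ uninjured library. The log2 ratio was 3.47 (3.18 to 3.77) for *Lama3*, 3.29 (2.92 to 3.67) for *Itga10* and -1.53 (-1.62 to -1.45) for *Lamb1*, which was 0.02 with each sort clustered on its own and clusters named by their own markers. *Itga4* and *Itgb7*, at 4.74 and 12.3 CPM in Gli1+, are leukocyte genes, and T cell markers summed to 16.3 CPM in the mesenchymal cells of that library against 0.43 to 6.75 CPM in the others; their part in the 2 ratios was not tested. At 7 dpi 7 were higher in Gli1+ (background 2.09%) and 0 lower (background 1.39%), and these were *Itga3*, *Itga4*, *Itga6*, *Itgb4*, *Itgb6*, *Lama3* and *Lamb3*. Of these, *Lamb3* passed the filter only through the Gli1+ 7 dpi library. The count was lower with the 10 CPM filter and with types by each cell's own markers, as given under processing below. By those markers 38.1% of the Gli1+ 7 dpi mesenchymal cells were mesenchymal. Under TMM *Itga6* was at 0.96, within 2-fold. Of the 7, 6 are genes of epidermal integrins and laminin and moved with the epidermal markers given above, and none of the 6 was above the level that would come with the epidermal RNA at the ratio of the epidermal cells. The part of that RNA in these ratios was not tested. At 21 dpi *Lamc3* alone was higher, at 5.38 against 1.75 CPM (background 0.813%), and 0 were lower (background 1.18%). *Lamc3* had 274 CPM in cluster 23, which held 2.50% of Gli1+ and 0.68% of Gli1- mesenchymal cells at that time.

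Vascular cells had patterns of their own. In blood endothelial cells, 350, 132 and 243 in Gli1+ and 3515, 980 and 1625 in Gli1-, *Itga1* was at 548, 193 and 85.5 CPM in Gli1+ and at 628, 330 and 107 CPM in Gli1-. *Itgav* was at 41.2, 166 and 260 CPM in Gli1+ and at 35.8, 204 and 326 CPM in Gli1-, and its partner *Itgb3*, of the pair found on sprouting endothelium, at 61.4 CPM in Gli1+ 21 dpi cells and at 5.0, 28.8 and 71.8 CPM in Gli1-. In both sorts the order of times for *Itga1* was the reverse of that for *Itgav*. The log2 ratios at 21 dpi were -2.68 (-2.95 to -2.43) and -2.55 (-2.65 to -2.46) for *Itga1* and 2.65 (2.29 to 3.03) and 3.19 (3.03 to 3.34) for *Itgav*. *Lamb1* was at 37.3, 115 and 93.4 CPM in Gli1+ and at 43.5, 123 and 119 CPM in Gli1-, *Lamc1* at 111, 294 and 235 CPM and at 141, 265 and 253 CPM. *Itga6* was at 667, 309 and 349 CPM in Gli1+ and at 595, 443 and 388 CPM in Gli1-.

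The endothelial class also shifted between clusters. Cluster 4, led by the capillary genes *Timp4*, *Gpihbp1* and *Cd36*, held 94.0, 68.2 and 34.6% of it in Gli1+ and 96.4, 75.7 and 50.9% in Gli1-, and cluster 11, led by the venular genes *Selp* and *Sele*, held the rest. Within cluster 4 *Itga1* was at 606, 299 and 295 CPM in Gli1+ and at 666, 612 and 359 CPM in Gli1-. Within cluster 11 of the Gli1- libraries it was at 222, 92.9 and 40.6 CPM. *Itgav* within cluster 4 was at 41.5, 67.0 and 137 CPM in Gli1+ and at 36.1, 109 and 97.6 CPM in Gli1-, and within cluster 11 of Gli1- at 32.8, 284 and 387 CPM. Both directions were therefore present inside each cluster, with a larger step for *Itgav* in cluster 11. *Lamb1* in cluster 11 of Gli1- was at 24.1, 156 and 130 CPM.

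**Figure D5:**
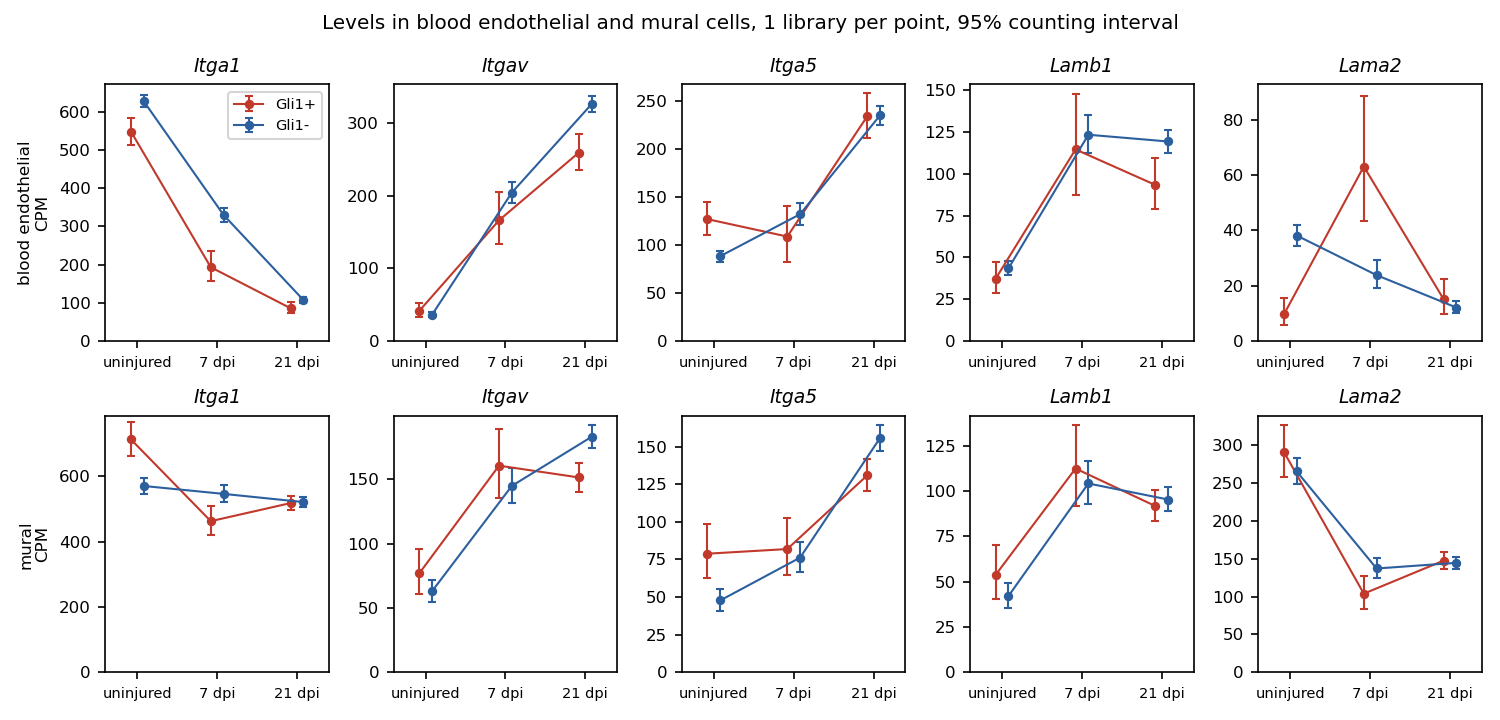
Levels (CPM, axes from 0) of *Itga1*, *Itgav*, *Itga5*, *Lamb1* and *Lama2* in blood endothelial (top) and mural cells (bottom) of each library; bars are 95% counting intervals, red is Gli1+ and blue Gli1-. Endothelial *Itga1* is lower and *Itgav* higher at each later time in both sorts, ending at 85.5 and 107 CPM for *Itga1* and at 260 and 326 CPM for *Itgav*.

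In mural cells (139, 202 and 576 in Gli1+ and 916, 541 and 1048 in Gli1-) *Itga1* was steadier, at 713, 463 and 519 CPM in Gli1+ and at 571, 547 and 522 CPM in Gli1-. *Itga8* was at 97.8, 49.2 and 16.3 CPM in Gli1+ and at 97.8, 28.0 and 18.3 CPM in Gli1-, *Itgav* at 76.8, 161 and 151 CPM and at 63.0, 145 and 183 CPM, and *Lama2* at 290, 104 and 147 CPM and at 265, 137 and 144 CPM. *Itga8* and *Lama2* were lower after injury in mural as in mesenchymal cells. Mural *Itgav* was higher at both times in both sorts, whereas in mesenchymal cells of Gli1+ it was back near its uninjured level at 21 dpi. Mural clusters shifted too: cluster 7, led by *Myh11* and *Rgs5*, held 46.0, 86.1 and 96.5% of the class in Gli1+ and 26.8, 68.8 and 90.7% in Gli1-, and cluster 13, with *Abcc9* among its leading genes, the rest. Within cluster 7 *Itga8* was at 188, 52.2 and 16.6 CPM in Gli1+ and at 242, 32.4 and 18.6 CPM in Gli1-. *Lama2* within cluster 7 was at 130, 99.5 and 148 CPM in Gli1+ and at 60.3, 99.9 and 136 CPM in Gli1-, and within cluster 13 of Gli1- at 377, 355 and 425 CPM. The lower mural *Lama2* at 21 dpi was therefore not seen inside either cluster, whereas that of *Itga8* was seen in cluster 7.

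Schwann and lymphatic cells reached 50 cells in the Gli1- libraries only. In Schwann cells *Itgb8* was at 198, 263 and 477 CPM and *Itga5* at 15.4, 70.1 and 51.1 CPM. *Lama2* there was at 404, 217 and 653 CPM, lowest at 7 dpi. In lymphatic endothelium *Itga9* was at 161, 213 and 265 CPM and *Lamc1* at 183, 454 and 425 CPM. The skeletal muscle class is not compared over time because its markers summed to 251 to 383 CPM at 21 dpi, far under their uninjured sum.

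The ligands and partners of these genes in mesenchymal cells came from 3 lists chosen by function. Of 16 measured non-laminin ligands of integrins, 9 and 9 were past 2-fold higher in Gli1+ at 7 and 21 dpi and 9 and 11 in Gli1-, with median log2 ratios of 1.48, 1.41, 2.13 and 1.53, where 12%, 7.47%, 13.2% and 12.1% of all genes were higher. *Tnc*, a ligand of alpha9 and alphav, was at 133, 2011 and 807 CPM in Gli1+ and at 25.9, 1726 and 845 CPM in Gli1-. *Vcam1*, another ligand of alpha9, was at 23.9, 167 and 105 CPM in Gli1+ and at 40.7, 185 and 117 CPM in Gli1-. The receptor *Itga9* was thus lower in the same libraries in which these ligands were higher. Other listed ligands went the opposite way. *Npnt* (nephronectin), a ligand of alpha8, was past 2-fold lower at each time after injury in Gli1+, as was *Itga8*, but not in Gli1-. *Vtn* was past 2-fold lower at 21 dpi for each sort, though past 2-fold higher at 7 dpi in Gli1+. *Tgfb1* and *Icam1* were past 2-fold lower at 7 dpi in Gli1+ alone. *Fn1*, the ligand of alpha5, was at 1035, 2500 and 2300 CPM in Gli1+ and at 619, 2598 and 2330 CPM in Gli1-, and *Spp1* reached 1388 and 1554 CPM at 21 dpi. Of 16 measured basement membrane partners, 6 and 5 were past 2-fold lower in Gli1+ at 7 and 21 dpi and 9 and 9 in Gli1-, with medians of -0.61, -0.46, -1.23 and -1.52, where 18.4%, 17.2%, 13.7% and 14.1% of all genes were lower. *Col7a1* was past 2-fold higher in all 4 comparisons, *Col17a1* at both times in Gli1+ and *Bcam* in Gli1+ at 7 dpi. The higher genes made up 18.75, 12.5, 6.25 and 6.25% of the list, to be read against the shares of higher genes given for the ligands. *Col4a1* was at 343, 116 and 166 CPM in Gli1+ and at 909, 256 and 213 CPM in Gli1-, and *Nid1*, which links laminin to collagen IV, at 379, 232 and 191 CPM and at 880, 333 and 213 CPM. In Gli1+ *Nid1* was within 2-fold at both times. Of 17 measured focal adhesion proteins, 4 and 5 were lower in Gli1+ and 2 and 3 in Gli1-, *Pxn* and *Lims2* in all 4 comparisons, and 0, 1, 2 and 2 were higher, with medians of -0.05, -0.40, 0.06 and -0.17, of which the TMM shifts given above would turn the sign of all but the third. The focal adhesion genes that were lower made up 23.5, 29.4, 11.8 and 17.6% of the list. These are to be read against the shares of all genes that were lower, given for the basement membrane partners. In Gli1- the focal adhesion shares lay near them.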

How the data were processed

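Gli1+ and Gli1- cells of mouse Achilles tendon were profiled with 3′ v3 Chromium kits in 6 libraries, 1 per condition. The authors deposited unnormalized UMI counts per gene and cell barcode, not adjusted for transcript length. The matrix header names Cell Ranger 9.0.0, whereas the submitters' processing notes name Cell Ranger 3.1.0 and STAR.

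Barcodes with under 200 genes, under 1000 UMIs, a log10 genes per UMI ratio under 0.7, or over 5% mitochondrial or hemoglobin UMIs were left out, following the study's methods. Likely doublets were called with Scrublet in scanpy 1.11.5 at a rate of 0.8% per 1000 cells and removed. Each cell was scaled to 10000 counts, log values were taken, and the cells of all 6 libraries were clustered on 2000 variable genes and 30 components, with 20 neighbours and Leiden resolution 0.5 (leidenalg 0.10.2), without the 37 genes and without the marker genes. Clusters were named from fixed markers where at least 3 were raised and their mean was at least 1 on the log2 scale above the other clusters, and those with at least 4 mesenchymal markers 4-fold up were called mesenchymal. These naming thresholds were set after seeing the data. UMIs were summed per library and class, divided by the total and given as CPM with exact Poisson 95% intervals, and ratios with exact binomial intervals. Genes at a mean of at least 1 CPM were compared, and 2-fold marked a call. A level of 0 allows up to 3 UMIs of the total.

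Alternatives were TMM factors (edgeR 4.0.16, R 4.3.3), other filters, clusterings and cell sets. In other clusterings a cluster took the class of most of its cells here. The ratio step, tested on simulated data for Gli1- 7 dpi over uninjured mesenchymal cells (14043 genes), recovered 100% of 200 changed genes, and 95.4% of its intervals held the true value. That checked the calculation on counts only, not the spread between animals, shifts between clusters or RNA from other cell types. In mesenchymal cells the named genes, followed through the alternatives, were those past 2-fold at a mean of at least 10 CPM and the 12 with the highest mean. Other genes were described too, in mesenchymal cells and in other classes. Those in other classes were not limited to genes whose highest level lay in the class. Genes and lists were chosen with earlier results of these data known. A gene that met the rule enters the counts over the family but is not reported here on its own.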

Additional observations from a re-analysis of the deposited data

Results flagged for a closer look

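In mesenchymal cells 6 genes had log2 ratios to uninjured tendon of opposite sign in the Gli1+ and the Gli1- libraries, each with a counting interval clear of 0 and the sorts at least 1 apart on the log2 scale. With 1 library per condition these differences between the sorts were not tested. At 7 dpi *Lamb1* was at 1.35 in Gli1+ and -0.11 in Gli1-, *Itga5* at -0.62 and 0.56, *Itga6* at 0.20 and -0.89, and *Lamb3* at 2.24 and -0.68. At 21 dpi *Lamb1* was at 0.90 and -0.55, *Itga10* at -0.86 and 2.26, and *Itga3* at -1.64 and 0.84. Signs also differed, by under 1, for *Lama4* at 7 dpi (0.26 and -0.27) and *Itga5* at 21 dpi (-0.25 and 0.70). Under TMM *Lamb1* at 7 dpi in Gli1- was at -0.0022 and *Itga5* at 21 dpi in Gli1+ at 0.21, so the opposite sign of these results depended on the scaling. For *Lamb1*, *Itga5* and *Itga10* the 2 sorts were near each other after injury and apart before it, so the difference lay in the uninjured libraries, 55.4 against 160 CPM, 178 against 91.9 CPM and 18.5 against 1.89 CPM. The uninjured sorts also differed in sex type and in clusters, with 31.1% tenocyte-like cells in Gli1+ mesenchyme and 3.69% in Gli1-, and the part of either in these ratios was not tested. *Lamb3* and *Itga6*, which differed at 7 dpi, are expressed in epidermal cells, and epidermal markers summed to 2373 CPM in the Gli1+ 7 dpi mesenchymal cells. *Lamb3* passed the 1 CPM filter only through the Gli1+ 7 dpi library. *Itga3*, which differed at 21 dpi, was at 3.64 CPM in uninjured and 1.17 CPM in 21 dpi Gli1+ mesenchymal cells. At the ratio of the epidermal cells, 2.3 and 1.42 CPM would come with epidermal RNA there. In Gli1- cells at 21 dpi 1.26 CPM was measured, where 1.16 CPM would come with it. The part of that RNA in the *Itga3* ratios was not tested. *Itga6* at 7 dpi in Gli1+ was at -0.30 when only cells that were mesenchymal by their own markers were counted.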

How the results depend on the processing

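For the 14 named genes in mesenchymal cells no value past 2-fold changed sign under these alternatives, except where clusters were named anew, as the last paragraph gives. Members past 2-fold numbered 14 and 11 in Gli1+ (7 and 21 dpi), 10 and 9 in Gli1-, and 9, 7 and 1 between the sorts (uninjured, 7 and 21 dpi). TMM scaling, kept doublets, every deposited barcode, resolution 1.0 and leaving out tenocyte-like cells, the last chosen after seeing the data, kept each count within 1.5 times. With no filter on low values the count was 18 for Gli1+ at 21 dpi, and 11 and 2 between the sorts at 7 and 21 dpi. With a mean of at least 10 CPM it was 6 and 5 for Gli1+, 5 for Gli1- at 21 dpi, and 1, 1 and 0 between the sorts. At 1.5-fold it was 17 for Gli1+ at 21 dpi, 16 and 17 for Gli1-, and 15, 11 and 4 between the sorts. Clustering each sort on its own gave 2 between the sorts at 21 dpi. Types taken from each cell's own markers gave 4 and 2 between the sorts at 7 and 21 dpi, and kept the highest class of 23 of 37 genes. By that rule 38.1% of the Gli1+ 7 dpi mesenchymal cells were mesenchymal, against 98.8 to 99.9% elsewhere. All kept cells of a library gave 16 for Gli1- at 7 dpi and 19 and 5 between the sorts in uninjured tendon and at 21 dpi. The 10 CPM filter tests fewer genes and the absence of a filter more, and all kept cells add the other cell types, while the cause of the other changes was not tested.

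In other clusterings, clusters took the class of most of their cells in the clustering used here. When they were named by their own markers instead, some uninjured mesenchymal clusters stayed unnamed, and of 25 values past 2-fold 0 changed sign at resolution 1.0, 1 with each sort clustered on its own (*Lamb1* between the uninjured sorts, 0.02), 4 with every barcode (*Itga1* 1.25 at 7 dpi and 0.47 at 21 dpi and *Lama2* 0.09 at 7 dpi in Gli1+, and *Itga1* 0.09 at 7 dpi in Gli1-) and 2 with doublets kept (*Itga1* 0.39 and 0.65 in Gli1+). The labels give no replicate numbers, so no replicate block was fitted, and an additive model of sort and time over the 6 libraries was not fitted. Genes under about 1 CPM, such as *Itgax*, could not be compared at this depth.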
